A study of Mus musculus with 38 samples.

Results

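The genes that license replication origins and the gene of the sliding clamp were followed in mouse spleen cells after cyclophosphamide, an alkylating drug that damages DNA. The set holds 8 genes: Cdc6, Mcm2, Mcm3, Mcm4, Mcm5, Mcm6, Mcm7 and Pcna. They were chosen by name, with earlier results of these data known. Each is represented by 1 probe of a 13443-probe array. Of the 8, Cdc6, Mcm4, Mcm5, Mcm6 and Pcna were measured in 3 or more mice per group, which is the condition for testing met by 8319 probes in all. All mice were of the DBA/2 strain, with no allele or other agent named. There were 5 untreated mice, 4 mice taken 1 day after an intraperitoneal injection of 83 mg/kg cyclophosphamide, 5 taken after 2 days and 5 taken after 5 days. The labels used here give no ages. Each of the 19 mice had 2 technical arrays, which were averaged, so n counts mice.

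Before DNA can be copied, the origin recognition complex and Cdc6 load a ring of 6 proteins, Mcm2 to Mcm7, onto each origin. This step, called licensing, is confined to late mitosis and G1, and in S phase the loaded MCM complex unwinds the DNA as the replicative helicase. Pcna forms the ring-shaped clamp that holds the replicative polymerases on DNA and also serves repair synthesis. Transcription of these genes is known to depend in large part on E2F factors and to be high in dividing cells. In the adult mouse spleen such cells include activated lymphocytes and red cell precursors.

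Each value is the log2 ratio of the spleen sample, labelled with Cy5, to a Cy3-labelled pool of bone marrow cells that all arrays shared. A ratio above 0 means more signal in the spleen than in the marrow pool. The ratios of different genes say nothing about their relative abundance. The labels call the pool untreated while its treatment field names cyclophosphamide, and a shared pool cancels in every difference between groups. Arrays carried 5829 to 10407 values, and the 2 arrays of a mouse correlated at 0.581 to 0.962. The lowest correlations were those of untreated mouse 4, untreated mouse 2 and day 5 mouse 5. Among splenocyte markers, the median of up to 4 B cell probes lay above the marrow pool in every mouse (0.51 to 1.78). The median of 3 neutrophil and granule probes lay below it (-4.25 to -1.19). Cd79a lacked a value in some mice, so some B cell medians are of fewer probes. Ms4a1 and Cd22 lay above the pool in every mouse, while Cd79a and Blk averaged 0.03 and -0.03 in untreated mice. None of the 6 T cell markers listed had values in enough mice to be tested.

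Sequence before the start site is shown for the 3 members whose change passed the test between day 2 and the untreated mice, and for Mcm5, whose change did not. The sequences are from RefSeq on GRCm38.p6, which is not stated to be the build of the array. Windows of 300 bases, 250 before the start site and 50 after it, were matched for 7 of the 8 members. Of Mcm6 and Pcna the 120 bases that end just before the start site are printed. Of the 250 bases before the start site, all lie inside the annotated gene for Cdc6 and 41 for Mcm5. Of Cdc6 and Mcm5, 30 bases around the E2F letters are printed. Capitals mark the letters of the E2F motif searched (TTTCCCGC, TTTCGCGC, TTTGCCGC or TTTGGCGC) and CCAAT, the letters of the CCAAT box, each on either strand.
Cdc6, chr11:98908002-98908031, plus strand: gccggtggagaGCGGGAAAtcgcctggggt
Mcm6, chr1:128359706-128359825, minus strand: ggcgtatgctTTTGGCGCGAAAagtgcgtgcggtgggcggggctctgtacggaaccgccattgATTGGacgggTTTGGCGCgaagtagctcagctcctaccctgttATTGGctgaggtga
Pcna, chr2:132253181-132253300, minus strand: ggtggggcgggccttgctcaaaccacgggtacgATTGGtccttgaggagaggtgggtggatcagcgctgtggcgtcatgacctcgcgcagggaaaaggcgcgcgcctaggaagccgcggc
Mcm5, chr8:75109347-75109376, plus strand: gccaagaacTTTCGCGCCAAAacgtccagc

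The E2F letters stood once in the Cdc6 window, at positions -138 to -131 from the start site and inside the annotated gene. The Mcm6 window held them 3 times, as an overlapping pair at -110 to -99 and once at -47 to -40. The Mcm5 window held an overlapping pair at -153 to -142, and the Pcna window held none. Of the 7 members with a window, 5 held the E2F letters, which occur in 2.26% of all 32851 windows. The members are counted by gene: Mcm7 has 2 windows, and the letters stood in 1 of them. In Mcm3 they stood only after the start site, at 19 to 26 and 38 to 45. Before the start site the letters occur in 1.86% of all windows. The CCAAT letters stood in 6 of the 7, against 37.4% of all windows, and were not in the window of Cdc6. A match of letters is a description of the sequence and not a measured binding site.

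Across the 4 conditions 3 of the 5 tested members changed and the ratios of the other two could not be told from constant. The limma F-test over the 4 conditions passed for Pcna (adjusted p = 0.00574), Cdc6 (adjusted p = 0.0136) and Mcm6 (adjusted p = 0.0229). It did not pass for Mcm4 (adjusted p = 0.719) or Mcm5 (adjusted p = 0.965). Of all 8319 probes, 6% passed.

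Cdc6, the loader that brings the MCM ring to the origin, had log2 ratios of -0.06, 0.39, 0.52, 0.25 and 0.36 in untreated mice 1 to 5. Its ratios were -0.37, -1.02, -0.79 and -1.05 on day 1 and -2.53, -0.40, -1.16, -0.25 and -1.10 on day 2. On day 5 they were 0.30, -0.55, 0.26, -0.09 and -0.05. Every mouse of day 1 and day 2 lay below every untreated mouse, and the mice of day 5 overlapped with the untreated ones. Day 2 was the most uneven group. Mice 2 and 4 stayed above -0.5, and mouse 1 was the lowest, with technical arrays at -1.99 and -3.06, the widest disagreement of any mouse for this gene.

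Pcna, the sliding clamp, gave ratios of -0.13, -1.74, -0.27, 0.06 and -0.31 in untreated mice 1 to 5. Ratios of -1.29, -1.29, -1.58 and -0.95 were measured on day 1, and of -1.47, -1.41, -1.54, -1.33 and -1.45 on day 2. The day 5 mice had -0.04, -0.22, -0.64, -0.35 and -0.29. The 5 mice of day 2 lay within a narrow band (-1.44 ± 0.08, SD, n = 5), tighter than any other group of a tested member. Untreated mouse 2, at -1.79 and -1.69 on its 2 arrays, stood apart from the other 4 untreated mice and lay lower than any treated mouse. Its Cdc6 ratio (0.39) was within the range of the untreated mice. The day 2 mice 2 and 4, which were highest of that group for Cdc6, were also its highest for Pcna, at -1.41 and -1.33. These ranks are narrow: mouse 5 followed at -1.45, and the 2 arrays of mouse 4 differed by 0.233. Mouse 2 was not high for Mcm4 (-0.95). For Pcna both mice lay below all untreated mice other than mouse 2.

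Mcm6, a subunit of the helicase ring, had ratios of -0.03, -0.25, -0.04, -0.42 and -0.08 in untreated mice 1 to 5. They were -0.47, -2.0, -0.24 and -0.47 on day 1 and -0.92, -0.83, -1.77, -1.20 and -1.71 on day 2. Day 5 mice 1, 3, 4 and 5 had -0.03, 0.04, -0.45 and -0.34, and mouse 2 had no value. All 5 mice of day 2 lay below all untreated mice and below all 4 measured mice of day 5. On day 1 mouse 2 alone was low, with both of its arrays close to -2.0, and the other 3 mice were near or within the untreated range.

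Mcm4, another subunit of the ring, had ratios of -0.59, -0.44, -0.03, -0.41 and 0.21 in untreated mice and of -0.43, -0.21, -0.71 and -0.67 on day 1. On day 2 it had -0.94, -0.95, -0.07, -0.06 and -0.95, and on day 5 0.21, -0.58, -0.20, -0.11 and -0.76. Its groups overlapped on every day. On day 2 mice 1, 2 and 5 lay below all untreated mice, and mice 3 and 4 within their range. The 2 arrays of a mouse differed by a median of 0.266 for Mcm4, against 0.0431 for Pcna and 0.0735 for Cdc6.

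Mcm5, also a subunit of the ring, was measured on 28 of the 38 arrays and in 16 mice. Untreated mice 2 to 5 had ratios of 0.02, -0.06, 0.63 and 0.01, and the day 1 mice had 0.16, 0.91, -0.11 and -0.11. Day 2 mice 1, 2, 4 and 5 had 0.63, -0.04, 0.14 and 0.00, and day 5 mice 1, 3, 4 and 5 had -0.03, -0.18, 0.44 and -0.08. Most mice of every group lay close to 0, and 1 mouse in each group stood above the rest of it. The value of 0.91 on day 1 rests on 1 array.

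Mcm2, Mcm3 and Mcm7, the remaining subunits, each had a value on 1 array of 38 and were not tested. Mcm2 had 0.747 in day 5 mouse 5, Mcm3 had 0.299 in day 1 mouse 2 and Mcm7 had 1.71 in day 2 mouse 2. Nothing on the course of these 3 genes can be read from single arrays, so the helicase is represented here by 3 of its 6 subunits.

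**Figure D1:**
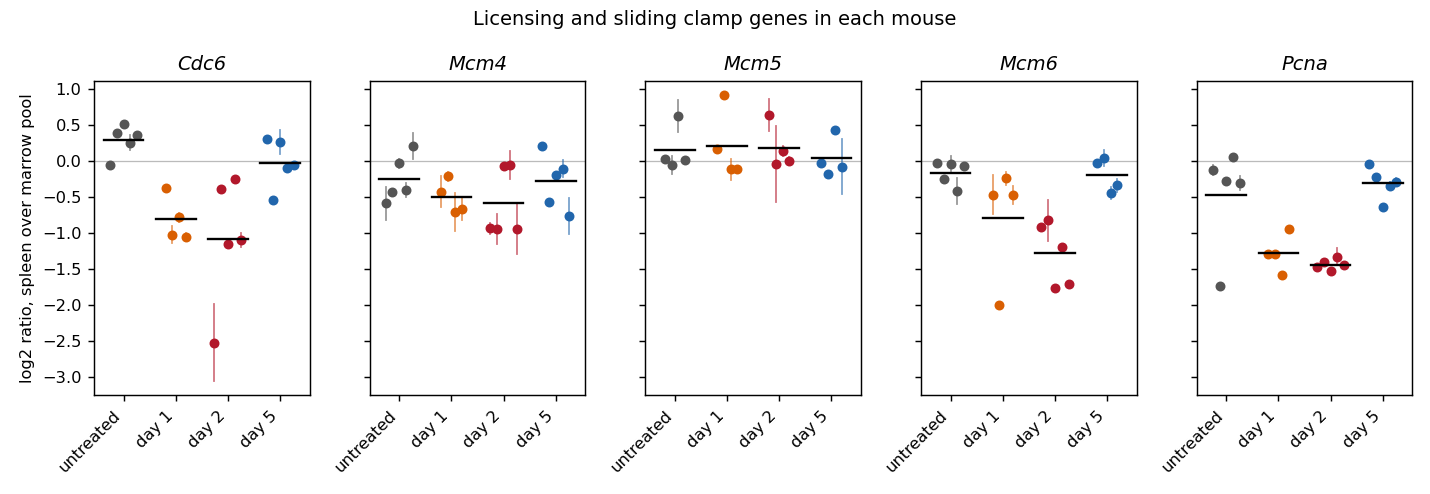
Log2 ratio of spleen over the marrow pool (vertical axis) for the 5 tested members in untreated mice and on days 1, 2 and 5. Each point is a mouse, thin lines join its 2 technical arrays and black bars are group means. The 5 day 2 mice of Pcna lie in a narrow band around -1.44, and untreated mouse 2 lies apart at -1.74.

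The first comparison asked what had changed 1 day after the drug. None of the 5 members passed the limma test with Benjamini-Hochberg adjustment over all probes, at which 2.33% of all probes were called in either direction, and 3 of the 5 had an unadjusted p under 0.05, as had 13.2% of all probes. Cdc6 averaged -0.81 ± 0.32 (SD, n = 4) on day 1 and 0.29 ± 0.22 (SD, n = 5) in untreated mice, a log2 difference of -1.10 ± 0.32 SE (adjusted p = 0.0711). The groups of Cdc6 did not overlap, which held for 4.08% of all probes in this direction. Pcna averaged -1.28 ± 0.26 (SD, n = 4) on day 1 and -0.48 ± 0.72 (SD, n = 5) in untreated mice, a difference of -0.80 ± 0.25 SE (adjusted p = 0.101). Without untreated mouse 2 the Pcna difference was -1.12 and passed (adjusted p = 0.000168). Over all alternatives its adjusted p ran from 0.000168 to 0.273.

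Mcm6 differed by -0.63 ± 0.28 on day 1 (adjusted p = 0.315), and by -0.23 without day 1 mouse 2. Mcm4 (-0.25 ± 0.23, adjusted p = 0.736) and Mcm5 (0.06 ± 0.23, adjusted p = 0.960) had differences within about 1 SE of 0. The median difference of the 5 members was -0.63, against 0.02 over all tested probes. The Cdc6 call depended on the handling of the arrays: it passed in 7 of 13 other settings and in 2 of 19 fits that each left out 1 mouse, with adjusted p = 0.00600 without day 2 mouse 1 and adjusted p = 0.0478 without day 2 mouse 4. Over all these fits its adjusted p ran from 0.00571 to 0.206.

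On day 2 Cdc6, Mcm6 and Pcna fell below the untreated level by 2.60-fold, 2.17-fold and 1.95-fold, while Mcm4 and Mcm5 did not pass the test. Thus 3 of 5 tested members were called lower, against 5% of all probes called lower and 8.31% called in either direction. Because the set was chosen with earlier results of these data known, this count is a description and not a test of the set. The median difference of the 5 members was -0.96, against 0.01 over all tested probes. Cdc6 averaged -1.09 ± 0.90 (SD, n = 5) on day 2 and 0.29 ± 0.22 (SD, n = 5) in untreated mice, a log2 difference of -1.38 ± 0.30 SE (2.60-fold lower, 95% interval 1.69 to 4.01, adjusted p = 0.00536). Without day 2 mouse 1 the difference was -1.02, and the call stood in all 13 other settings and all 19 fits without 1 mouse.

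Mcm6 averaged -1.28 ± 0.44 (SD, n = 5) on day 2 and -0.16 ± 0.17 (SD, n = 5) in untreated mice. Its difference was -1.12 ± 0.26 SE (2.17-fold lower, 95% interval 1.48 to 3.18, adjusted p = 0.0106). Cdc6 and Mcm6 had no overlap between the day 2 and untreated mice, which held for 4.98% of all probes in this direction. Pcna averaged -1.44 ± 0.08 (SD, n = 5) on day 2 and -0.48 ± 0.72 (SD, n = 5) in untreated mice, a difference of -0.96 ± 0.24 SE (1.95-fold lower, 95% interval 1.39 to 2.74, adjusted p = 0.0129). The day 2 values of Pcna lay below those of 4 untreated mice and above that of untreated mouse 2. Without that mouse the difference was -1.28 (adjusted p = 6.11e-06). The Pcna call was lost when arrays were brought to equal median absolute deviation (-0.70, adjusted p = 0.164) and when only the 2 groups compared were fitted (adjusted p = 0.0672), and over all alternatives its adjusted p ran from 6.11e-06 to 0.164.

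Mcm4 averaged -0.59 ± 0.48 (SD, n = 5) on day 2 and -0.25 ± 0.33 (SD, n = 5) in untreated mice. The difference was -0.34 ± 0.22 SE, with a 95% interval of -0.80 to 0.12 (adjusted p = 0.407). Mcm5 averaged 0.18 ± 0.31 on day 2 and 0.15 ± 0.32 in untreated mice (SD, n = 4 each), a difference of 0.03 ± 0.23 SE with a 95% interval of -0.46 to 0.52 (adjusted p = 0.956). Neither interval reaches the point estimates for Cdc6, Mcm6 or Pcna, which have errors of their own. The Mcm4 interval overlaps with the intervals of these genes, that of Pcna being -1.46 to -0.47.

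Whether members of the set differed in their day 2 change was tested on the difference between the log2 ratios of each pair of genes within a mouse, by a two-sided exact permutation test with Benjamini-Hochberg adjustment over the 10 pairs. No pair passed. For Cdc6 minus Mcm4 the difference of changes was -1.04 (95% interval -1.95 to -0.14, exact p = 0.0317, adjusted p = 0.190). For Mcm5 minus Mcm6 it was 1.00 (95% interval 0.23 to 1.77, exact p = 0.0571, adjusted p = 0.190), where 4 mice against 4 cannot give a p under 0.0286. For Mcm4 minus Pcna it was 0.62, and the interval included 0 (-0.29 to 1.53, exact p = 0.135, adjusted p = 0.225). With 5 mice against 5 the smallest exact p is 0.00794, and 1 pair alone at that value does not pass adjustment over 10 pairs. The test therefore could not decide whether the subunits of the MCM ring differed from each other on day 2. The intervals come from a t distribution with a pooled spread and not from the permutation.

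Between day 2 and day 1 no member passed the limma test and none had an unadjusted p under 0.05, against 0.0601% of all probes called. All 5 differences were below 0, as were 55.0% of all probes, and that of Mcm6 was the farthest from 0 (-0.48 ± 0.28, adjusted p = 0.863). Those of Cdc6, Mcm4, Mcm5 and Pcna each turned sign in at least 1 alternative. The Cdc6 difference was -0.28 ± 0.32, and 0.08 without day 2 mouse 1. That of Pcna was -0.16 ± 0.25, and 0.23 after quantile normalization.

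On day 5 Pcna, Mcm6 and Cdc6 were each about 2 times as high as on day 2. Thus 3 of 5 tested members were called higher on day 5 than on day 2, against 3.8% of all probes, which again describes a set chosen with earlier results known. Pcna averaged -0.31 ± 0.22 on day 5 and -1.44 ± 0.08 on day 2 (SD, n = 5 each), a log2 difference of 1.13 ± 0.24 SE (2.19-fold higher, adjusted p = 0.00576). Mcm6 averaged -0.19 ± 0.24 (SD, n = 4) on day 5 and -1.28 ± 0.44 (SD, n = 5) on day 2, a difference of 1.09 ± 0.28 SE (2.13-fold higher, adjusted p = 0.0260). For both genes every day 5 mouse lay above every day 2 mouse, which held for 4.8% of all probes in this direction. Cdc6 averaged -0.03 ± 0.34 on day 5 and -1.09 ± 0.90 on day 2 (SD, n = 5 each), a difference of 1.06 ± 0.30 SE (2.09-fold higher, adjusted p = 0.0415), with overlap between the groups.

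These rises differed in how firmly they were measured. That of Pcna passed in all 19 fits without 1 mouse and in 11 of 13 other settings. That of Mcm6 passed in 15 of 19 and 9 of 12, and was lost without day 2 mouse 3 or 5 and without day 5 mouse 1 or 3. That of Cdc6 passed in 12 of 19 and 7 of 13. Without day 2 mouse 1 it was 0.70 (adjusted p = 0.0608), and with the replicate number as a block its adjusted p was 0.0705, within a range of 0.00295 to 0.128 over all alternatives. After quantile normalization none of the 3 passed, with differences of 0.77 for Pcna, 0.81 for Mcm6 and 0.83 for Cdc6.

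Mcm4 (0.31 ± 0.22, adjusted p = 0.508) and Mcm5 (-0.15 ± 0.23, adjusted p = 0.802) did not pass between day 5 and day 2. In the same pairwise test, the difference of changes for Mcm4 minus Pcna was -0.83 (95% interval -1.48 to -0.18). Its exact p of 0.00794 is the smallest that 5 mice against 5 can give, and over the 10 pairs the adjusted p was 0.0794. No pair passed. Each comparison with day 2 uses the same 5 day 2 mice, so the fall on day 2 and the rise after it share those values.

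Set against the untreated mice, no member passed on day 5 in the limma test and none had an unadjusted p under 0.05, against 0.0721% of all probes called. The differences were -0.32 ± 0.30 for Cdc6 (95% interval -0.94 to 0.30), -0.03 ± 0.28 for Mcm6 and 0.17 ± 0.24 for Pcna. Those of Mcm4 and Mcm5 were -0.03 ± 0.22 and -0.12 ± 0.23. The Pcna difference took the opposite sign without untreated mouse 2 (-0.15).

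Between day 5 and day 1 no member passed in the limma test, against 0.914% of all probes called. An unadjusted p under 0.05 was found for 2 of 5 members, against 8.63% of all probes. Pcna was nearest, at 0.97 ± 0.25 (adjusted p = 0.0716), with every day 5 mouse above every day 1 mouse, as for 2.58% of all probes. Without untreated mouse 2, which is in neither group but enters the shared spread, the same difference passed (adjusted p = 0.000797, in a range over all alternatives up to 0.220). Cdc6 differed by 0.78 ± 0.32 (adjusted p = 0.419) and Mcm6 by 0.61 ± 0.29 (adjusted p = 0.588). A smaller amount of these messages per cell and a smaller share of cells that hold them cannot be told apart in RNA from whole spleen cell samples.

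**Figure D2:**
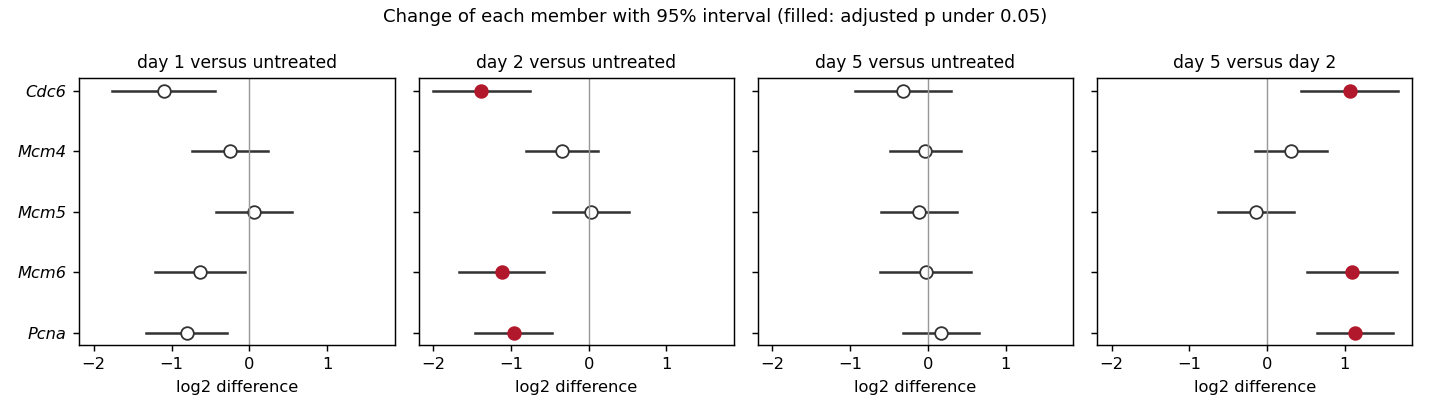
Log2 difference of each tested member (horizontal axis) with its 95% interval in 4 comparisons. Filled points passed the limma test at an adjusted p under 0.05: Cdc6, Mcm6 and Pcna were lower on day 2 than in untreated mice and higher on day 5 than on day 2.

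Around these members, a list of 74 other replication genes was set out by role, also with earlier results of these data known. The array carries 54 of them and 29 could be tested, with 31 probes. On day 1, 5 of the 31 probes were called lower and none higher, against 1.39% of all probes called lower. On day 2, 11 probes of 10 genes were called lower and none higher, against 5% of all probes. On day 5 none was called, and 3 of 31 had an unadjusted p under 0.05, as had 5.22% of all probes. The median difference of the list was -0.35 on day 1, -0.46 on day 2 and -0.07 on day 5.

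Among the genes of origin recognition and loading, Orc5, a subunit of the complex that marks origins, fell on day 1 (-0.58 ± 0.14, adjusted p = 0.0274) and on day 2 (-0.69 ± 0.13, adjusted p = 0.00190). Its day 5 level was 0.50 ± 0.13 higher than on day 2 (adjusted p = 0.0287). Orc6, which works with the same complex, did not pass on either day (-0.53 ± 0.19 and -0.48 ± 0.19). Its 3 measured mice of each day lay below the 3 untreated ones, as held for 4.08% of all probes on day 1 and 4.98% on day 2. With 3 mice per group, such an order is weak evidence of a change. Orc1, another subunit of the complex, gave -0.38 ± 0.30 on day 2.

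Of the genes that turn a loaded helicase into an active one, Mcm10 fell on day 2 by both of its probes (-0.95 ± 0.23, adjusted p = 0.0138, and -0.63 ± 0.17, adjusted p = 0.0264). On day 1 the probes disagreed, 1 passing (-1.05 ± 0.25, adjusted p = 0.0254) and the other not (-0.25 ± 0.18, adjusted p = 0.629). Gins4, a subunit of the GINS complex of the active helicase, did not pass on day 2 (-0.57 ± 0.34, adjusted p = 0.362). Mcm9, a relative of the ring subunits, stayed near 0 (0.02 ± 0.15). Gmnn, which encodes the inhibitor of licensing geminin, had a value in 1 mouse and was not tested.

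The clamp loader places Pcna on DNA. Its subunit Rfc4 had a log2 difference of -1.43 ± 0.28 on day 1 (adjusted p = 0.00769) and of -1.0 ± 0.27 on day 2 (adjusted p = 0.0226). Rfc4 averaged -1.26 ± 0.41 on day 1 (SD, n = 4) and 0.16 ± 0.37 in untreated mice (SD, n = 5). Rfc5, another subunit, did not pass (-0.87 ± 0.24 on day 1, adjusted p = 0.0621), and the subunit Rfc2 gave 0.16 ± 0.16. Of the polymerase genes, Pola2, the accessory subunit of polymerase alpha, fell on day 2 (-0.54 ± 0.16, adjusted p = 0.0353). Its catalytic partner Pola1 did not pass (-0.19 ± 0.17, adjusted p = 0.571).

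Of the genes that finish the lagging strand, Lig1, the ligase that joins Okazaki fragments, fell on day 2 (-0.89 ± 0.26, adjusted p = 0.0399). Rnaseh2a, a subunit of the enzyme that cuts RNA in RNA-DNA hybrids, fell on day 2 (-0.73 ± 0.19, adjusted p = 0.0183) and was higher on day 5 than on day 2 (0.66 ± 0.19, adjusted p = 0.0446). Rnaseh1, which also cuts such hybrids, gave 0.21 ± 0.17. In the single-strand binding complex, Rpa1 (-0.46 ± 0.13, adjusted p = 0.0357) and Rpa3 (-0.69 ± 0.14, adjusted p = 0.00403) fell on day 2, and Rpa2 did not pass (-0.17 ± 0.34). Rpa3 was higher on day 5 than on day 2 (0.58 ± 0.14, adjusted p = 0.0214).

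The histone chaperones Asf1a and Asf1b, which hand histones to new DNA, had the smallest adjusted p of the list on both days. Asf1a averaged -0.97 ± 0.31 on day 1 (n = 4) and -0.98 ± 0.09 on day 2 (n = 5), against 0.10 ± 0.05 in untreated mice (SD, n = 5). Its differences were -1.06 ± 0.13 on day 1 (adjusted p = 7.88e-05) and -1.08 ± 0.13 on day 2 (adjusted p = 9.12e-06). Asf1b, its paralog, differed by -1.39 ± 0.22 on day 1 (adjusted p = 0.000990) and by -1.45 ± 0.20 on day 2 (adjusted p = 7.54e-05). Both were higher on day 5 than on day 2, Asf1a by 0.87 ± 0.13 and Asf1b by 0.99 ± 0.20. Of the E2F and Rb genes none of 4 was called on any day. Tfdp1, the dimer partner of E2F, gave -0.49 ± 0.24 on day 2 (adjusted p = 0.255), and Rb1, the retinoblastoma gene, gave 0.35 ± 0.36 (adjusted p = 0.619).

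Calls of this list varied in firmness. Those of Asf1a, Asf1b and Orc5 on day 2 stood in all 19 fits without 1 mouse and in all other settings that measured them. That of Lig1 on day 2 stood in 11 of 19 and 7 of 13, and that of Rpa1 in 13 of 19 and 9 of 13. On the same day that of Pola2 stood in 13 of 19 and 9 of 13, and that of Rfc4 in 15 of 19 and 8 of 12. The Mcm10 probe with the smaller fall (-0.63) kept its day 2 call in 15 of 19 and 9 of 13. The rise of Rnaseh2a between day 5 and day 2 stood in 9 of 19 and 8 of 12.

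**Figure D3:**
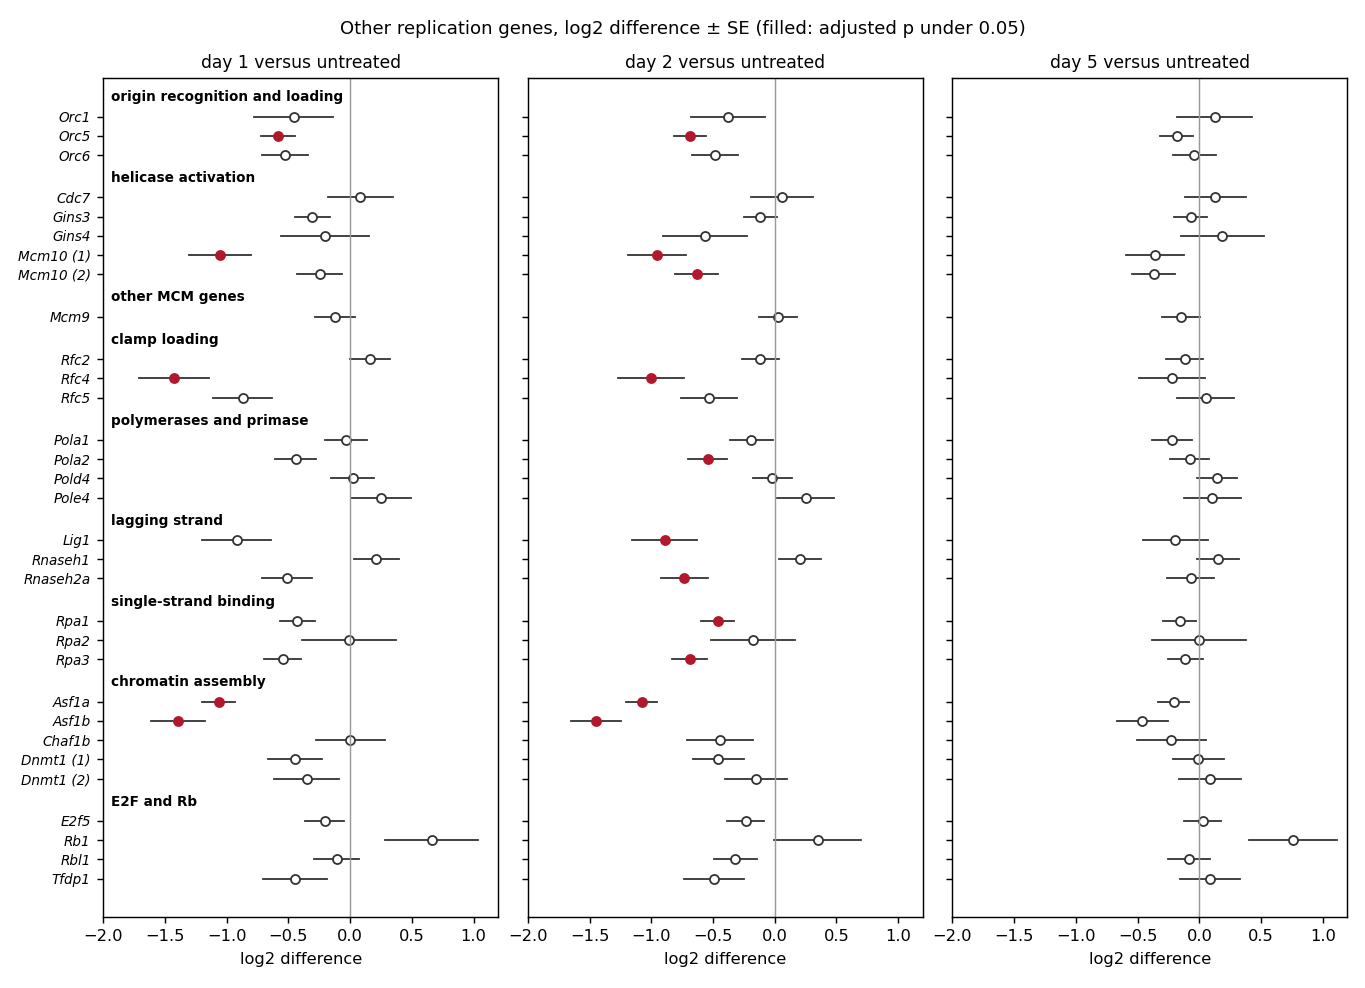
Log2 difference from untreated mice ± SE (horizontal axes) of the 31 tested probes of other replication genes on days 1, 2 and 5, grouped by role. Filled points passed the limma test. On day 1 there are 5 filled points, on day 2 there are 11 and on day 5 none, and all lie left of 0.

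Genes of other kinds moved on the same days. Of 4 genes of deoxynucleotide supply, 3 fell on day 1 and 3 on day 2, against 1.39% and 5% of all probes called lower. Their medians were -1.54 and -1.30. Of 6 genes of mitosis and proliferation, 2 fell on each of these days, against the same shares of all probes, with medians of -0.35 and -0.42. Cdk1 averaged -2.09 ± 0.34 on day 2 and -0.19 ± 0.10 in untreated mice (SD, n = 5 each). Cdc20 averaged -2.47 ± 0.22 on day 2 and -0.47 ± 0.22 in untreated mice (SD, n = 5 each). Mki67, the common marker of cycling cells, had values in 3 untreated mice and did not pass on day 2 (-0.35, adjusted p = 0.300). Of the 6 genes, 4 were not called on day 2. Of 11 red cell precursor probes, 3 were called lower on day 1 and 7 on day 2, against 1.39% and 5% of all probes. Their median within a mouse lay between -0.29 and 0.01 in untreated mice, between -1.23 and -0.45 on day 1, between -2.18 and -0.50 on day 2 and between -0.64 and 0.16 on day 5. Between day 5 and day 2, 6 of the 11 probes were called higher, against 3.8% of all probes. The part of red cell precursors in the fall and later rise of the members was not tested.

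Of 5 macrophage probes, 1 was called higher on day 1, against 0.938% of all probes, and 2 on day 2, against 3.31% of all probes. None was called on day 5 against untreated mice. The macrophage median within a mouse lay between 0.13 and 0.60 in untreated mice and between 0.81 and 1.66 on day 1. It lay between 0.21 and 1.85 on day 2 and between 0.92 and 1.45 on day 5. These medians on day 1 and day 5 lay above those of the untreated mice without overlap. By single probe this held for 1 of 5 on each of the 2 days, against 4.24% and 0.673% of all probes. The medians do not all rest on the same probes. C1qa, which averaged 2.24 on day 5, had values in all 5 mice of day 5 and in 3 of 5 untreated mice. Of 4 B cell probes none was called against untreated mice on day 1, day 2 or day 5. Between day 5 and day 2, 2 of the 4 were called lower and none higher, against 1.5% of all probes called lower. Between day 5 and day 1, 1 of the 4 was called lower, against 0.301% of all probes. The B cell median of a mouse lay between 0.58 and 1.78 in untreated mice, between 0.85 and 1.57 on day 1, between 0.69 and 1.69 on day 2 and between 0.51 and 1.06 on day 5. None of 4 stromal probes was called on any day against untreated mice. The stromal median within a mouse was higher on day 1 (1.18 to 1.47) than in untreated mice (0.29 to 0.70) without overlap. By single probe this held for 1 of 4, against 4.24% of all probes. The stromal median lay between 0.21 and 2.17 on day 2 and between -0.04 and 0.86 on day 5. Itga2b, 1 of 2 megakaryocyte probes, was called higher on day 2 and day 5, against 3.31% and 0.0481% of all probes. The part of these cells in the result was not tested either.

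The genes whose course over the 19 mice was most like that of the members were sought among 3807 named genes with a value in every mouse. Likeness was the root mean square difference from the median of the 5 tested members, after each gene was centred on its own mean. The 6 nearest were Pck2 (0.187), Ube2e3 (0.194), Diaph3 (0.197), Clp1 (0.200), Mpst (0.208) and Ube2t (0.211), against a median of 0.505 over all 3807. The members themselves lay at 0.366 (Pcna) to 0.558 (Mcm5) from their own median. Pck2 encodes the mitochondrial PEP carboxykinase, Ube2e3 and Ube2t ubiquitin-conjugating enzymes, Diaph3 a formin, Clp1 an RNA kinase and Mpst a sulfurtransferase. Because they were chosen for this likeness, their day 2 differences from untreated mice are a description: -0.84 for Pck2, -0.69 for Ube2e3, -0.69 for Diaph3, -0.55 for Clp1, -0.71 for Mpst and -0.83 for Ube2t.

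**Figure D4:**
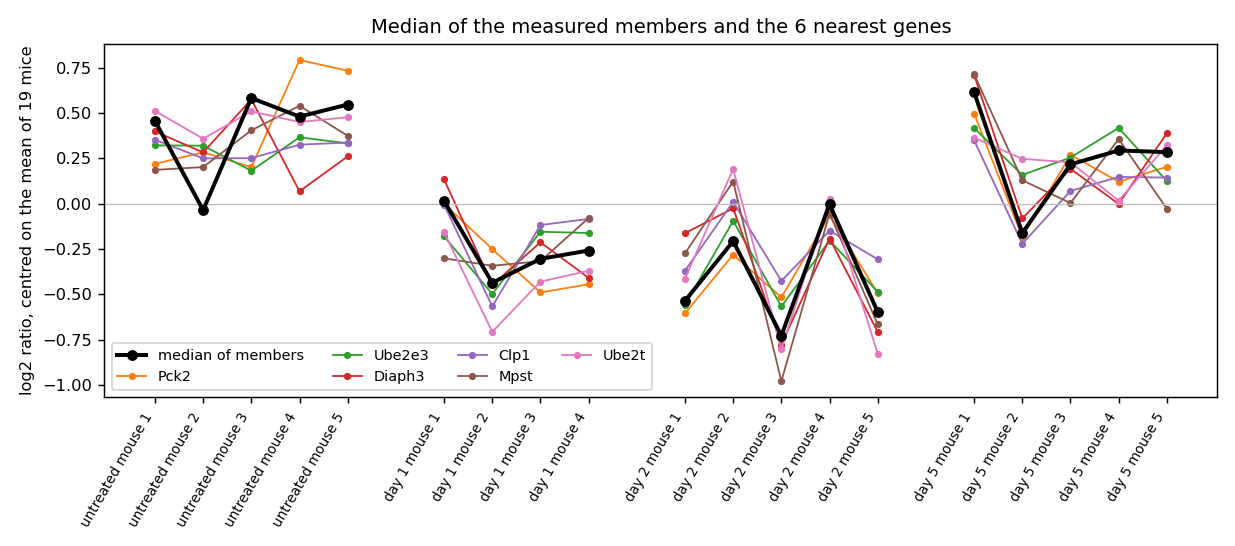
Log2 ratio centred on the mean of 19 mice (vertical axis) for the median of the 5 tested members (black) and the 6 nearest genes, mouse by mouse. The day 2 mice 2 and 4 lie higher than day 2 mice 1, 3 and 5 in the black line.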

How the data were processed

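Per the labels' protocols, total spleen RNA (Qiagen RNeasy) was amplified (Ambion MessageAmp II) and coupled to Cy5, and the RNA of the marrow pool to Cy3, with no dye swap. As far as the values show, the authors deposited log2 ratios with spleen RNA over the pool; for the log base, background correction and normalization, the sources used here name nothing, and base 2 was assumed. They were kept as deposited, within a bound of 6, with array medians of -0.0212 to 0.0132. Gene names came from the platform's probe table, updated in RefSeq: 10032 probes name 1 gene, 170 several and 3241 none.

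The 2 arrays of a mouse were averaged, and the 8319 probes (61.9%) measured in 3 or more mice per group were fitted with limma 3.58.1 (lmFit, eBayes) in R 4.3.3. The 4 groups shared 1 spread, tests were two-sided, and p was adjusted by Benjamini-Hochberg over all tested probes at 0.05. The steps were tested on simulated data. Folds are 2 to the power of the log2 difference. The members and lists were chosen with earlier results of these data known.

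Named beside the members are probes of the replication list that passed in any of 6 comparisons, up to 2 genes of each role with the smallest F-test p, and the 6 genes of most similar course, clone names left out. Orc1, Rfc2, Rpa2, Rnaseh1, Gmnn and the marker genes are named for contrast, after their values were seen. Alternatives were other scalings (median, quantile, equal median absolute deviation), each technical array alone or with the mouse as a random effect, weights per array, a trend in the variance, stricter and looser filters on missing values, fits of only the groups compared, a block on mouse number, and leaving out mice. Mice of equal number in different groups were not paired by the labels: their deviations correlated at a mean of 0.00199 over 27 pairs. The pairwise test of members was added after the data were seen. No slide or scan batch is given, so none was tested. Plots used Python 3.11.15 with matplotlib 3.10.9.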

Additional observations from a re-analysis of the deposited data

Results flagged for a closer look

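An outlier check divided the gap between an extreme mouse and its nearest neighbour by the range of the group. Of 20 groups of mice checked (5 tested members in 4 groups), 3 held a mouse whose ratio exceeded Dixon's 95% critical value. Chance alone gives about 1 in 20. Pcna in untreated mouse 2 had a log2 ratio of -1.74, with both arrays of the mouse close together, while the other 4 untreated mice lay between -0.31 and 0.06. Mcm6 in day 1 mouse 2 had -2.0 on both arrays, while the other 3 mice of day 1 lay between -0.47 and -0.24. Mcm5 in untreated mouse 4 had 0.63, with arrays at 0.40 and 0.85, while the other 3 measured mice lay between -0.06 and 0.02. That mouse had the lowest correlation between technical arrays (0.581), and untreated mouse 2 the next lowest (0.651).

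The effect of the drug differed between day 5 and day 2 for 3 members by the limma test of that difference. It was 1.06 for Cdc6, 1.09 for Mcm6 and 1.13 for Pcna on the log2 scale. Every day 5 mouse lay above every day 2 mouse for Mcm6 and Pcna, and not for Cdc6.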

How the results depend on the processing

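Of 13 alternative settings, Cdc6 and Pcna were measured in 13, Mcm4 and Mcm6 in 12 and Mcm5 in 10. Each called difference of Cdc6, Mcm6 and Pcna kept its direction in the settings that measured it. Of the members that a setting measured, 2 or 3 were called between day 2 and untreated mice, and none between day 5 and untreated mice or between day 2 and day 1. Leaving out each of the 19 mice in turn gave 3 members for day 2 against untreated, 0 to 1 for day 1, 1 to 3 for day 5 against day 2 and 0 to 1 for day 5 against day 1. Over the same fits the replication list had 3 to 6 probes called on day 1, 6 to 11 on day 2, 2 to 6 for day 5 against day 2 and 1 to 3 for day 5 against day 1. All probes called were 109 to 224 on day 1, 501 to 690 on day 2, 0 to 6 on day 5, 3 to 11 for day 2 against day 1, 299 to 479 for day 5 against day 2 and 32 to 86 for day 5 against day 1.

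Quantile normalization gave 338 probes in all for day 2 against untreated, in place of 691 (108 higher and 230 lower, in place of 275 and 416), 83 for day 5 against day 2, in place of 441 (64 higher and 19 lower, in place of 316 and 125), and 0 for day 2 against day 1, in place of 5. It called 2 members on day 1, 0 for day 5 against day 2 and 1 for day 5 against day 1, and 5 and 1 probes of the replication list on day 2 and for day 5 against day 2. Equal median absolute deviation gave 117 probes on day 1, 353 on day 2 (101 higher and 252 lower), 0 on day 5, 0 for day 2 against day 1, 144 for day 5 against day 2 (125 higher and 19 lower) and 32 for day 5 against day 1. It called 1 member on day 1 and 0 for day 5 against day 2, and 4, 1 and 1 probes of the list on day 2, for day 5 against day 2 and for day 5 against day 1. Array 1 alone called 1 member on day 1, 7 list probes on day 2 and 1 for day 5 against day 1, and array 2 alone called 0 probes on day 5. With the mouse as a random effect 452 probes were called on day 1, 24 on day 5, 27 for day 2 against day 1, 730 for day 5 against day 2 and 226 for day 5 against day 1, with 2 members on day 1 and 1 for day 5 against day 1. Probes with values on all arrays gave 1 member each on day 1 and for day 5 against day 1, and 3 list probes for day 5 against day 2. A variance trend gave 0 probes on day 5. Array weights gave 350 probes on day 1, 20 for day 2 against day 1 and 135 for day 5 against day 1, with 2 members and 8 list probes on day 1 and 1 member for day 5 against day 1. Fitting only the groups compared gave 449 probes on day 2, 1 on day 5 and 1 for day 2 against day 1, with 1 member each on day 1 and for day 5 against day 1. Without the 3 mice of low technical correlation there were 123, 450 and 1 probes on days 1, 2 and 5, 1 member each on day 1, for day 5 against day 2 and for day 5 against day 1, and 3, 7 and 1 list probes on day 1, on day 2 and for day 5 against day 1. The cause of these shifts was not tested.

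The mouse numbers did not pair the samples: 7 of 27 same-numbered pairs correlated over 0.1, against 28 of 108 differently numbered pairs. With the replicate block 0 probes were called on day 5, 3 for day 2 against day 1 and 1 list probe for day 5 against day 1, and the Cdc6 difference between day 5 and day 2 lost its call (adjusted p = 0.0705). Precision is set by the number of mice (median standard error over all probes 0.18 on days 1 and 2), and signal over background is unknown.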
